A study of Mus musculus with 72 samples.

Results

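Hepatic stellate cell activation genes were followed in bulk RNA-seq libraries of mouse liver and of the suprachiasmatic nucleus (SCN), the site of the body's master circadian clock in the hypothalamus. The group holds 8 genes, taken by symbol: Acta2, Timp1, Lox, Tgfb1, Pdgfrb, Des, Lrat and Fbln5. Of these, 7 had a row among the 22823 genes of the liver count table and 5 among the 15759 genes of the SCN table. Timp1 in both tissues, and Lox and Lrat in SCN, were read from the exon-bin counts of the same libraries, which tally reads over parts of exons.

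All mice were C57BL/6 of 8 to 12 weeks, housed singly, and ate either a methionine- and choline-deficient (MCD) diet, which causes fatty liver with inflammation in mice, or a control diet matched for energy. Feeding lasted 11 days. Light-dark cycles of 10 days gave way to a day without light, on which livers and brains were taken at 6 circadian times (CT0, CT4, CT8, CT12, CT16 and CT20, counted in hours). Each combination of tissue, diet and time had 3 libraries (24 groups and 72 libraries in all), so that each diet had 18 libraries per tissue. The libraries numbered 1 and 2 were labelled male and those numbered 3 female, so sex and number cannot be told apart. The protocol text speaks of male mice only. Liver RNA came from the left lobe, and the SCN was cut from brain sections by laser. The labels do not say which liver and SCN libraries came from 1 mouse, and p-values measure the spread between libraries as the labels give them.

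Stellate cells lie between hepatocytes and the sinusoidal endothelium and store vitamin A as retinyl esters, which the enzyme lecithin retinol acyltransferase (Lrat) makes. After liver injury they turn into contractile, matrix-producing myofibroblasts, driven by transforming growth factor beta (Tgfb1) and by platelet-derived growth factor acting on its receptor Pdgfrb. Activated cells make smooth muscle actin (Acta2), the collagen cross-linking enzyme lysyl oxidase (Lox), the elastic fibre protein fibulin 5 (Fbln5) and the metalloproteinase inhibitor Timp1, while the intermediate filament desmin (Des) marks stellate cells of rodents at rest and when activated. In brain, Acta2, Des and Pdgfrb are known as genes of vascular smooth muscle and pericytes.

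In the GENCODE annotation of build GRCm38, Tgfb1 (ENSMUSG00000002603) lies at chr7:25687002-25705077 on the plus strand, Fbln5 (ENSMUSG00000021186) at chr12:101746565-101819055 on the minus strand and Acta2 (ENSMUSG00000035783) at chr19:34241090-34255590 on the minus strand. Des (ENSMUSG00000026208) lies at chr1:75360329-75368579 on the plus strand, Lrat (ENSMUSG00000028003) at chr3:82892579-82903973 on the minus strand and Timp1 (ENSMUSG00000001131) at chrX:20870166-20874735 on the plus strand. Lox is ENSMUSG00000024529 and Pdgfrb ENSMUSG00000024620. Timp1 lies inside the neuronal gene Syn1 on the opposite strand, and Des, Lox and Lrat overlap the opposite-strand transcripts Gm15179, AC161119.1 and Rbm46os. Counts of these 4 genes may hold reads of their partners, because no source used here says whether strand was used in counting. Syn1 itself stood at 0.247 to 2.38 CPM (counts per M counts of the library, M standing for mega) in liver and at 172 to 319 CPM in SCN.

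The promoters below are shown because the first 3 belong to genes that were higher on MCD in liver, as Lox was too, while the last belongs to Acta2, the classical activation marker, which did not pass the test there. Each sequence is the 250 bases before a transcription start in the RefSeq table of build GRCm38.p6, read 5′ to 3′ on the gene's strand, at chr7:25686752-25687001 (plus) for Tgfb1, chr12:101818485-101818734 (minus) for the second of the starts listed for Fbln5, chrX:20869916-20870165 (plus) for Timp1 and chr19:34255374-34255623 (minus) for Acta2. Capitals mark the SMAD element CAGAC, the core bound by the transcription factors downstream of TGF-beta, and the CArG box, the site of serum response factor (CC, then A or T at each of 6 positions, then GG), with at most 1 departure. Both were searched on both strands.
Tgfb1: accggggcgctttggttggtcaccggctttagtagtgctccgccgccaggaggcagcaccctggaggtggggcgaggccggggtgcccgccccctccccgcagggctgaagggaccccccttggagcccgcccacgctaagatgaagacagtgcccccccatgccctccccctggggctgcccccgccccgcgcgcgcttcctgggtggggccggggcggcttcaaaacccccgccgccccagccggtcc
Fbln5: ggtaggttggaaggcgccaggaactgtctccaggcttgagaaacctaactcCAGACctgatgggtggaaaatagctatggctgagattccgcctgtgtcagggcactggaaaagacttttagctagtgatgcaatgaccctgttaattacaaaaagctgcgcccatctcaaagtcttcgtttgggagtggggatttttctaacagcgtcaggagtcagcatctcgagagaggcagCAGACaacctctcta
Timp1: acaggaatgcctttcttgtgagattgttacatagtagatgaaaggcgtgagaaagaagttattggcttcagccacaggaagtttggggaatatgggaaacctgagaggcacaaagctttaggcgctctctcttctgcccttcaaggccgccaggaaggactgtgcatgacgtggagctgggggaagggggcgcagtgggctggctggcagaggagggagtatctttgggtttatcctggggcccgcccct
Acta2: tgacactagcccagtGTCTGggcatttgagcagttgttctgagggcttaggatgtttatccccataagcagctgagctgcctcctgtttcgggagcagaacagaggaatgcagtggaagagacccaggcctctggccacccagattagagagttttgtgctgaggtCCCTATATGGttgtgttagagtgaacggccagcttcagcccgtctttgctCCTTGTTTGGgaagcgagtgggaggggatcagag
Acta2 held 2 CArG boxes, CCCTATATGG and CCTTGTTTGG, that begin 84 and 34 bases before the start, and 1 SMAD element, GTCTG on the strand shown. The second Fbln5 window held 2 SMAD elements, which begin 199 and 15 bases before the start, while the windows of Tgfb1 and Timp1 held neither motif. Of the others with a window, Lrat held 1 CArG box (CCAAGAAAGG), and the Des window and the first Fbln5 window, at chr12:101819120-101819369, held neither. Promoters of Lox and Pdgfrb were not analysed here. In all 32851 windows of 250 bases, 42.2% held a SMAD element and 18.6% a CArG box. The AP-1 site TGANTCA, the E-box CACGTG and the TATA box TATAAA, found in 6.75%, 6.02% and 12.4% of all windows, were in none of the 7 windows of the 6 genes searched. A match of letters is a description and no sign of binding.

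Libraries held 52.6 to 86.7 M gene counts in liver and 23.3 to 79.8 M in SCN. Hepatocyte markers (7 of 7 with a row) summed to 57835.3 to 123422.8 CPM in liver libraries, and markers of SCN neurons (8 of 8) to 1682.2 to 4290.6 CPM in SCN libraries, so each tissue carried the genes of its label. Levels below are CPM scaled by TMM, edgeR's correction for differences in library makeup. Liver libraries fell into 2 kinds by the mitochondrial transcript mt-Nd6, which was low in 8 control and 13 MCD libraries and high in 10 and 5. Apart from this, 3 liver libraries stood apart from the rest in these genes: control CT8 a (a name given here, since the labels of the table repeat 1 name), MCD CT4 1 and MCD CT12 2. Their mean z-scores over the 7 genes were 1.36, 2.39 and 2.11, and the next highest was 0.70. They also held the 3 highest levels of collagen Col3a1 (163, 231 and 204 CPM against at most 68.8 elsewhere) and of the macrophage receptor Trem2 (8.57, 16.0 and 19.1 CPM against at most 5.02). Liver results are therefore given with and without these 3 libraries. Since the libraries were picked for high values of these genes, their removal narrows the spread by construction, and the values without them are a description and no further support.

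In liver, the ligand Tgfb1 was higher on MCD, and its level on the control diet was 8.82 at the lowest, 11.3 at the median and 20.0 CPM at the highest. On MCD these were 10.4, 15.6 and 31.2 CPM, and the means were 12.0 ± 2.66 and 16.6 ± 5.53 CPM (SD, n = 18 each). The log2 change averaged over the 6 times was 0.46 (SE 0.11, edgeR quasi-likelihood test, adjusted p = 0.00127). The diets overlapped, with 16 of 18 MCD libraries above the control median and 3 above every control library, and the MCD mean was the higher at 6 of 6 times. Without the 3 libraries that stood apart the change was 0.37 (adjusted p = 3.55e-04).

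The receptor Pdgfrb ran from 6.13 through a median of 11.6 to 23.2 CPM on control and from 7.94 through 11.8 to 27.0 CPM on MCD. Its log2 change of 0.20 (95% interval −0.07 to 0.46, adjusted p = 0.246) did not pass the threshold of 0.05. Its 3 highest libraries were the 3 that stood apart, at 23.2, 27.0 and 23.6 CPM, and no other exceeded 15.3 CPM. Without them the change was 0.06.

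Among the 7 genes with a row in the liver table Lox was the least abundant, with raw counts of 0 to 104 on control and 7 to 265 on MCD. Its level was 0 at the lowest, 0.251 at the median and 1.03 CPM at the highest on control, against 0.0859, 0.544 and 3.05 CPM on MCD. The log2 change was 1.27 (SE 0.35, adjusted p = 0.00439), and 16 of 18 MCD libraries lay above the control median although the diets overlapped. At CT16 the control libraries 1 and 2 had no Lox count, where a count of 0 allows up to 0.0490 and 0.0532 CPM (counting error only), and library 3 had 15 counts. Leaving out that library gave 2.20, but the CT16 controls then held no count at all, so this size depends on how the fit treats such a group. Leaving out the 3 libraries that stood apart gave 1.08 (adjusted p = 0.0061).

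Fbln5, which helps to assemble elastic fibres, stood at 3.39, 4.42 and 6.34 CPM (lowest, median and highest) on control and at 3.69, 5.46 and 9.12 CPM on MCD. The means were 4.49 ± 0.798 and 5.72 ± 1.29 CPM (SD, n = 18 each), and the log2 change was 0.36 (SE 0.10, adjusted p = 0.00362). Ranges overlapped, but 16 of 18 MCD libraries were above the control median and 5 above every control. Without the 3 libraries that stood apart the change was 0.25 (adjusted p = 0.0027).

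Timp1, which inhibits metalloproteinases, was summed over its 9 exon bins. Counts ran from 0 to 215 with a median of 2.5 in the 18 control livers, and 5 files held 0, which allows up to 3 counts in each. On MCD they ran from 3 to 416 with a median of 28.5. The 3 highest files were those of the libraries that stood apart, control CT8 1 (the exon file whose gene sums correlated with column a at 0.958 and with b at 0.9088), MCD CT4 1 and MCD CT12 2, at 2.63, 6.56 and 3.72 CPM of all bin counts. In the other files Timp1 reached at most 8 counts on control and 61 on MCD. The log2 change was 2.44 (SE 0.65, edgeR on exon-bin sums, adjusted p = 0.00544). It was 2.62 (adjusted p = 2.03e-04) without the 3 libraries and 3.09 (adjusted p = 2.92e-04) without control CT8 1 alone. At CT4, Timp1 had 416, 61 and 18 counts on MCD against 0, 2 and 4 on control, and passed by itself (5.50, adjusted p = 0.0173, where 16.1% of genes did). That change was 3.71 (adjusted p = 0.0258) without the 3 libraries, and it did not pass with limma (4.97, adjusted p = 0.082) or without the libraries numbered 1 (3.16, adjusted p = 0.265) or 2 (5.61, adjusted p = 0.0668). At CT8, the time of control CT8 1, the change was −1.06 (adjusted p = 0.817). In the fit of all files 39.8% of 20595 genes passed the threshold and 21.8% were higher on MCD, and control CT0 1 and 2, whose exon files end early, were not used.

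The contractile gene Acta2 ran from 0.747 through 2.33 to 3.64 CPM on control and from 1.11 through 2.31 to 6.59 CPM on MCD. Its log2 change of 0.32 (95% interval −0.08 to 0.72, adjusted p = 0.214) did not pass, and 8 of 18 MCD libraries were above the control median. The 3 MCD libraries above every control were CT4 1 and CT12 2, at 6.59 and 5.35 CPM, and CT0 1, at 4.90 CPM. Without the libraries that stood apart the change was 0.07.

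Des stood at 2.77, 4.46 and 5.91 CPM on control and at 3.76, 4.57 and 8.49 CPM for MCD, with a log2 change of 0.15 (95% interval −0.03 to 0.34, adjusted p = 0.194). Lrat, the enzyme of vitamin A storage, had the highest level of the 7 genes per length, and it ran from 17.4 through 26.4 to 54.8 CPM on control and from 16.6 through 28.6 to 56.6 CPM on MCD. The Lrat change was 0.12 (95% interval −0.16 to 0.40, adjusted p = 0.518). For both genes the diets overlapped over most of their range, and without the 3 libraries that stood apart the changes were 0.07 and 0.04. Fewer cells of a type and less RNA per cell cannot be told apart in these bulk samples.

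**Figure D1:**
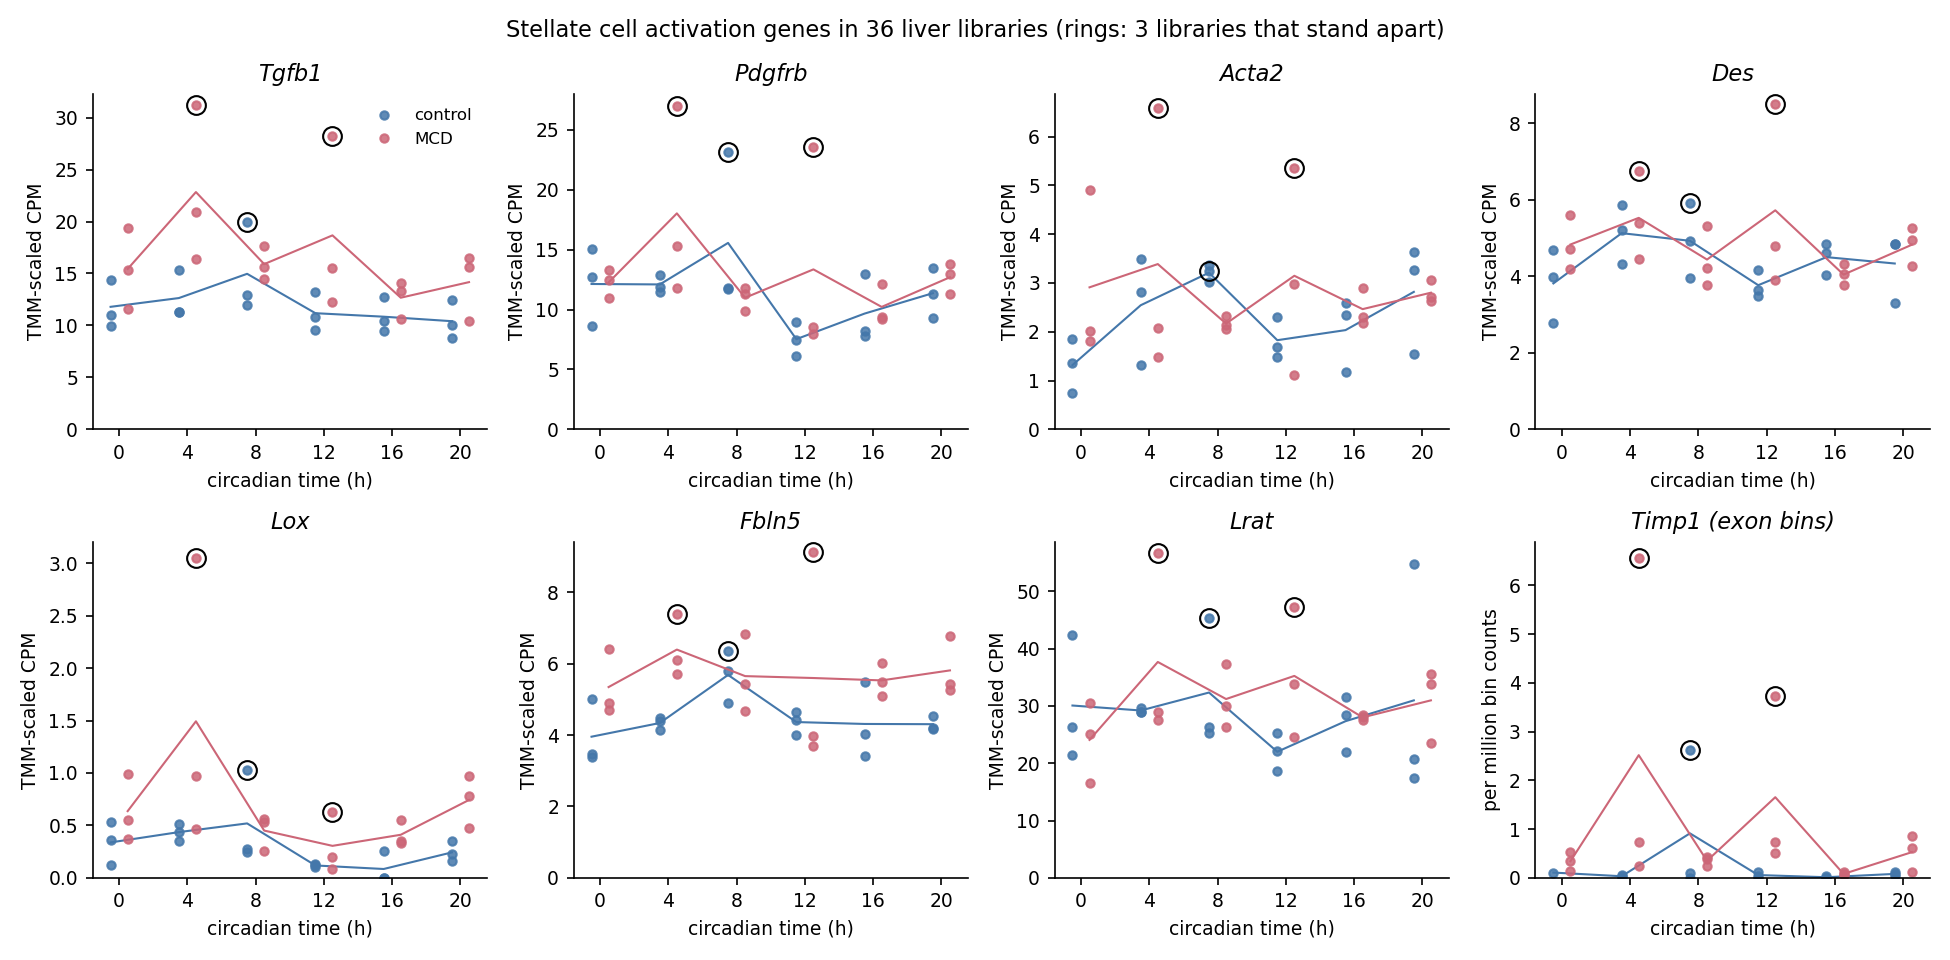
Levels of the 8 genes (y axis, TMM-scaled CPM, and CPM of all bin counts for Timp1) by circadian time (x axis, hours) in liver. Points are libraries, blue for control and red for MCD, lines join the means of 3 libraries, and rings mark the 3 libraries that stood apart, which hold the top 3 places for Pdgfrb, Des and Timp1.

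In all, 3 of the 7 genes tested rose on MCD and 0 fell, in a liver where 46.6% of 20249 genes passed the same threshold and 25.3% were higher. The median change of the 7 was 0.32, against 0.02 over all genes, and 0.07 against 0.00 without the 3 libraries. Scaling by library totals alone called all 7 higher. That scaling moved the median of all genes to 0.27 and called 10633 genes higher and 1540 lower, against 5130 and 4296 with TMM, whose factors averaged 0.917 on control and 1.10 on MCD. Tgfb1, Lox and Fbln5 kept their calls with DESeq2 and limma and on leaving out any single library. From exon-bin sums all 3 passed with edgeR and DESeq2, but Lox (0.86, adjusted p = 0.0607) and Fbln5 (0.28, adjusted p = 0.0635) did not pass with limma. Without the libraries numbered 1, none of the 7 passed, with Tgfb1 at 0.37 (adjusted p = 0.0678), Fbln5 at 0.31 (0.0663) and Lox at 0.94 (0.106), and the share over all genes was 31.2%. That fit left out MCD CT4 1 but kept MCD CT12 2 and control CT8 a, which carries no number. From exon-bin sums without the files numbered 1, control CT8 1 among them, the changes were 0.42 for Tgfb1, 0.32 for Fbln5 and 1.03 for Lox. Within the low kind of library the changes were 0.33 for Tgfb1, 0.40 for Fbln5 and 0.91 for Lox. Within the high kind they were 0.53, 0.26 and 1.65, and Lrat had 0.57. These fits averaged only the times at which a kind held both diets, and no high-kind MCD library came from CT16. Several of their groups held a single library, so no calls are read from them. Such libraries were MCD CT4 1 in the high kind and control CT8 a in the low kind, among others.

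**Figure D2:**
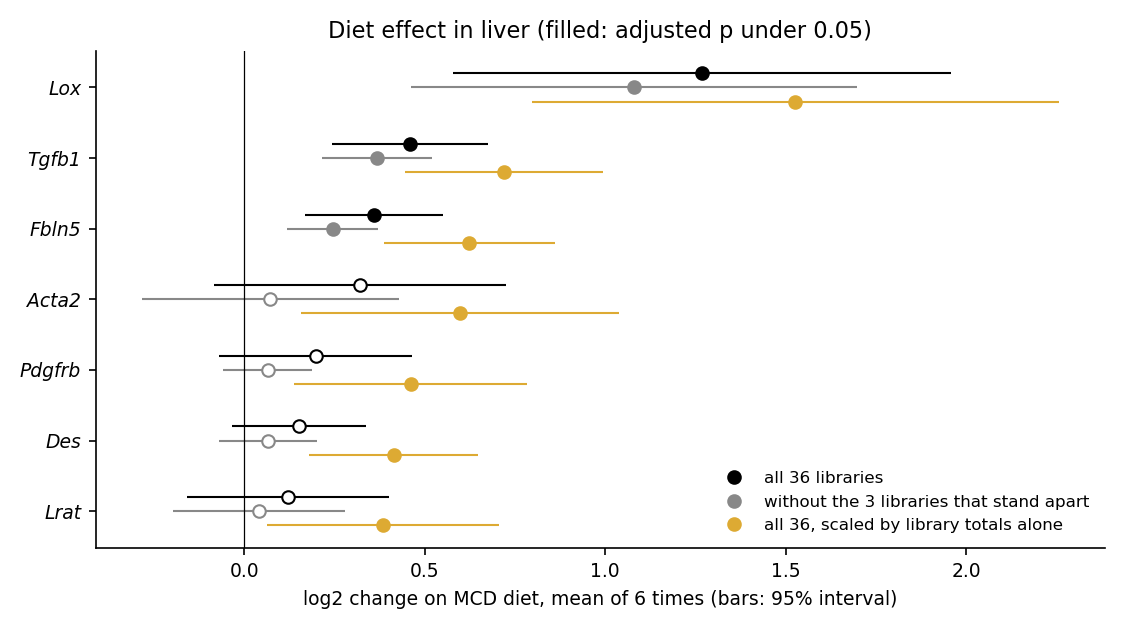
Log2 change of each of 7 genes on MCD against control in liver, averaged over 6 times (x axis), with 95% intervals, for all 36 libraries, without the 3 that stood apart, and with scaling by library totals alone. Filled points had an adjusted p under 0.05: Lox, Tgfb1 and Fbln5 are filled in all 3 versions, and Acta2, Pdgfrb, Des and Lrat only with library totals.

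At single times, 1 of 42 gene-by-time tests passed, where the share over all genes was 12.6% at CT0, 18.2% at CT4, 1.3% at CT8, 15.2% at CT12, 12.5% at CT16 and 11.3% at CT20. Tgfb1 at CT4 stood at 31.2, 16.4 and 20.9 CPM in the 3 MCD libraries, with a mean of 22.8 ± 7.59 CPM, against 12.6 ± 2.31 CPM on control (SD, n = 3 each), and the log2 change was 0.86 (SE 0.27, adjusted p = 0.0276). Control and MCD did not overlap at that time. The call was lost without the libraries that stood apart (0.53, adjusted p = 0.0746), without those numbered 1 (0.49, adjusted p = 0.547) and without those numbered 3 (1.07, adjusted p = 0.0506). Without the libraries that stood apart other gene-by-time tests passed, and their number is given at the end. At CT8, where control CT8 a belongs, Lox, Fbln5, Pdgfrb, Acta2, Des and Lrat had changes between −0.56 and −0.02, none past the threshold.

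Daily rhythms of the 7 genes were tested in liver within each diet. On control 0 of 7 passed with edgeR, with 1 at an unadjusted p under 0.05, 1 with DESeq2 and 0 with limma, while 17.8% of all genes passed. The gene in question was Lox both times, whose 24 h component spanned 2.41 on the log2 scale from trough to peak with a peak near CT 3.6 (adjusted p = 0.0656). Its highest mean was at CT8, with libraries at 0.249, 1.03 and 0.278 CPM, and its lowest at CT16, with libraries at 0, 0 and 0.253 CPM, and these overlapped. On MCD 0 of 7 passed, 1 at an unadjusted p under 0.05 (Tgfb1, adjusted p = 0.111) and 0 with DESeq2 or limma, against 28.2% of all genes. The difference in rhythm between diets passed for 0 of 7 by each of the 3 tools, with 0 at an unadjusted p under 0.05 in edgeR and 4.87% of all genes past the threshold, and for 0 of 7 without the 3 libraries (7.3% of all genes). Without the 3 libraries that stood apart, Lox and Pdgfrb passed on control, where 20.9% of all genes did, and Pdgfrb on MCD, where 30.4% did.

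Between the libraries labelled female and male, 0 of 7 genes differed by edgeR, DESeq2 or limma in liver, 0 had an unadjusted p under 0.05 in edgeR, and 9.44% of all genes passed. Without the 3 libraries that stood apart, 3 of 7 genes (Pdgfrb, Fbln5 and Des) and 19.4% of all genes passed. Those 3 libraries are all labelled male and were picked for high values of these same genes, so their removal lowers the male levels by construction and nothing is read from that count. The diet effect differed between the sexes for 0 of 7 by each tool, 0 at an unadjusted p under 0.05 in edgeR, against 1.77% of all genes, and for 0 of 7 without the 3 libraries (3.5% of all genes). The widest intervals, for females minus males, were those of Lox (−2.42 to 0.44) and Acta2 (−1.57 to 0.07).

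Correlations between the 7 genes were taken over liver libraries beyond diet, time and sex. After group means and sex were removed, 19 of 21 pairs had a positive correlation with an adjusted p under 0.05 (Pearson's r over all 21 from 0.27 to 0.79, two-sided permutation test over 36 libraries, adjusted over 21 pairs). The share among pairs of all genes was not computed, so whether this count is particular to these genes was not tested. The permutations treated the 36 residuals as exchangeable. Removing 12 group means and sex leaves fewer independent values than libraries, so these p-values are likely too small and the count too high. Tgfb1 with Pdgfrb had r = 0.79 and Spearman's rho = 0.66, with permutation p = 1.00e-05, the smallest that 100000 permutations can give, and 2.00e-05 (adjusted 3.50e-05 and 2.10e-04). Lox with Pdgfrb had r = 0.79 and rho = 0.79, each with permutation p = 1.00e-05 (adjusted 3.50e-05 and 2.10e-04). Without the 2 libraries farthest from the median, r was 0.67 and 0.77, and 15 pairs passed. Without the 3 libraries that stood apart 2 pairs passed, Lox with Pdgfrb at r = 0.65 and Fbln5 with Lox at r = 0.49, and the others ran from −0.35 to 0.37. Those libraries were picked for jointly high values of these genes, so leaving them out lowers the correlations by construction. Within control alone 4 pairs passed, within MCD 20, within the low kind of library 14 and within the high kind 13.

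**Figure D3:**
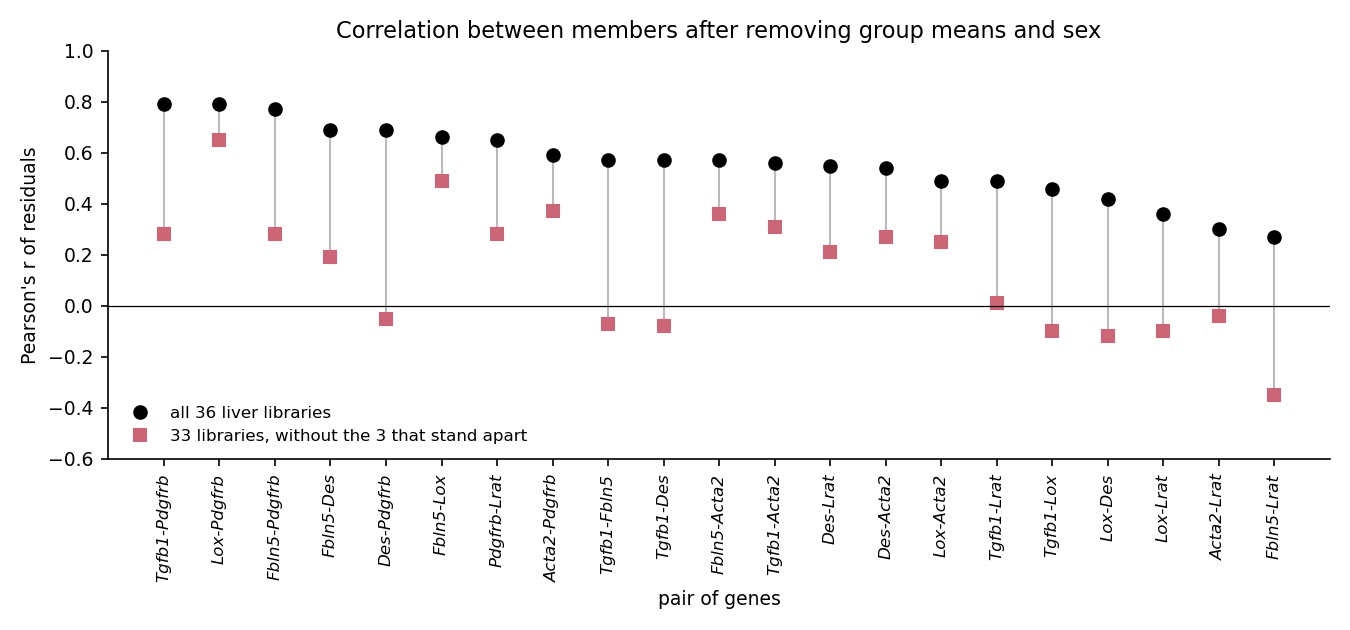
Pearson's r (y axis) of the residuals of each of 21 pairs of genes after removal of group means and sex, over 36 liver libraries (black circles) and over 33 without the 3 that stood apart (red squares). All 21 pairs are above 0 with all libraries, and 8 are below 0 without the 3.

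Genes whose levels over the 36 liver libraries were most like a given member are named here by Pearson's r of log2 CPM, as a description, since the points share diet, time and depth. Tgfb1 was most like Msn (0.95), Plekho2 (0.95) and Fxyd5 (0.94), and without the 3 libraries that stood apart these were 0.92, 0.90 and 0.90. For the other 6 members the values without them ran from 0.57 (Des with Dtx3) to 0.88 (Pdgfrb with Col5a1). Pdgfrb was most like the collagen Col5a1 (0.95), the matrix protein gene Sparc (0.90) and the signalling regulator Rgs2 (0.90), which also led for Lox (0.83), before Slc15a3 (0.82) and Gm39556 (0.82). Acta2 was most like the smooth muscle gene Tagln (0.75), Fstl1 (0.72) and Svep1 (0.71). Fbln5 was most like Aebp1, Soga1 and Hip1 (0.83 each), Des most like Pea15a (0.77), C130050O18Rik (0.77) and Dtx3 (0.76), and Lrat most like Tnfrsf21 (0.80), Kcnk6 (0.76) and Slc37a2 (0.75).

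The pathways around the members were read from lists of related genes in the same liver fit, in which 25.3% of all genes were higher and 21.2% lower. Of 24 other TGF-beta pathway genes, 13 rose and 1 fell (median log2 change 0.23). Among them were the TGF-beta activator Thbs1 (1.11 ± 0.676 against 3.47 ± 2.58 CPM, SD, n = 18 each, log2 change 1.54, SE 0.23, adjusted p = 4.66e-06) and the pathway target Ccn2 (1.13, adjusted p = 1.51e-05). The latent TGF-beta binding protein gene Ltbp4 fell (−0.35, adjusted p = 0.00132). Of 6 other genes of PDGF ligands and receptors 3 rose and 0 fell (median 0.64): the ligands Pdgfa (0.82, adjusted p = 7.77e-05) and Pdgfb (0.82, adjusted p = 3.53e-04) and the other receptor Pdgfra (0.70, adjusted p = 7.03e-05), whose mean went from 7.41 ± 2.00 to 12.1 ± 3.78 CPM (SD, n = 18 each).

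Around Lox, 7 of 13 genes of its family and of collagen processing rose and 1 fell (median 0.32). Loxl2, a related cross-linking enzyme, rose by 0.66 (adjusted p = 0.00275), Adamts2 and Plod2, which process and modify collagen, rose by 0.52 (adjusted p = 0.00818) and 0.50 (adjusted p = 0.0276), and the procollagen protease Bmp1 fell (−0.52, adjusted p = 1.09e-06). Of 9 collagens tested 8 rose and 0 fell (median 0.54), led by Col6a3 (0.89), Col4a1 (0.81) and Col1a2 (0.77). Around Fbln5, 4 of 10 elastic fibre genes rose and 0 fell (median 0.30), among them the microfibril gene Fbn1 (0.55, adjusted p = 0.00923), Emilin1 (0.41, adjusted p = 5.95e-04) and Mfap2, whose level was 0.0830 ± 0.146 CPM (median 0) on control against 0.197 ± 0.211 CPM on MCD (adjusted p = 0.0203). Mfap2 lost its call without the 3 libraries that stood apart (adjusted p = 0.0568), with limma (0.071), without the libraries numbered 2 (0.069) or 3 (1.0) and within either kind of library.

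Around Timp1, 6 of 11 metalloproteinases and inhibitors rose and 0 fell (median 0.40). The collagenase Mmp13 rose from 0.417 ± 1.21 to 3.09 ± 4.02 CPM (SD, n = 18 each, log2 change 3.79, SE 0.52, adjusted p = 1.43e-06). Mmp8 (means 0.0202 and 0.173 CPM) and Mmp7 (means 0.0810 and 0.238 CPM) also passed at levels near 0. Mmp7 lost its call with limma (1.08, adjusted p = 0.148), without the libraries numbered 1 (1.14) or 3 (1.35), after adjustment for the mt-Nd6 kind (1.82, adjusted p = 0.0542) and within the low kind (2.23, adjusted p = 0.121). The inhibitors Timp2 (0.16, adjusted p = 0.0911) and Timp3 (0.04, adjusted p = 0.638) did not pass. Around Acta2, 6 of 13 smooth muscle genes rose and 1 fell (median 0.24), with Tpm1 (0.93) and Synpo2 (0.97) higher, Actc1 higher at means of 0.0589 and 0.239 CPM, and the myosin light chain kinase gene Mylk lower (−0.62, adjusted p = 4.04e-07).

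Around Des, 4 of 6 intermediate filament genes rose and 0 fell (median 0.72): the epithelial keratins Krt8 (0.99) and Krt18 (0.84), the desmin partner Synm (0.89) and Vim (0.60). Around Lrat, 4 of 15 genes of retinoid storage and signalling rose and 3 fell (median 0.09). Aldh1a1, which makes retinoic acid (0.77), and the carotenoid-cleaving Bco1 (0.73) were among those that rose, and the retinyl ester hydrolase Pnpla3 (−5.53, SE 0.33, adjusted p = 1.97e-11), the retinol carrier partner Ttr (−0.35) and Rdh10 (−0.28) fell. Ttr is also on the list of hepatocyte markers. Without the 3 libraries that stood apart, the counts of genes higher and lower were 11 and 3 for TGF-beta, 3 and 0 for PDGF, 9 and 1 for the Lox list, 8 and 0 for collagens, 3 and 1 for elastic fibres, 6 and 0 for metalloproteinases, 5 and 2 for smooth muscle, 4 and 0 for intermediate filaments and 4 and 5 for retinoids. In that fit 5016 of all 20424 genes were higher and 4678 lower. With library totals alone, 20 TGF-beta genes, 6 PDGF genes, 11 of the Lox list, 8 collagens, 6 elastic fibre genes, 8 metalloproteinase genes, 7 smooth muscle genes, 5 intermediate filament genes and 7 retinoid genes were higher, and 1 each of the Lox, smooth muscle and retinoid lists was lower. That scaling called 10633 of all 20249 genes higher and 1540 lower (60.1% in all).

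**Figure D4:**
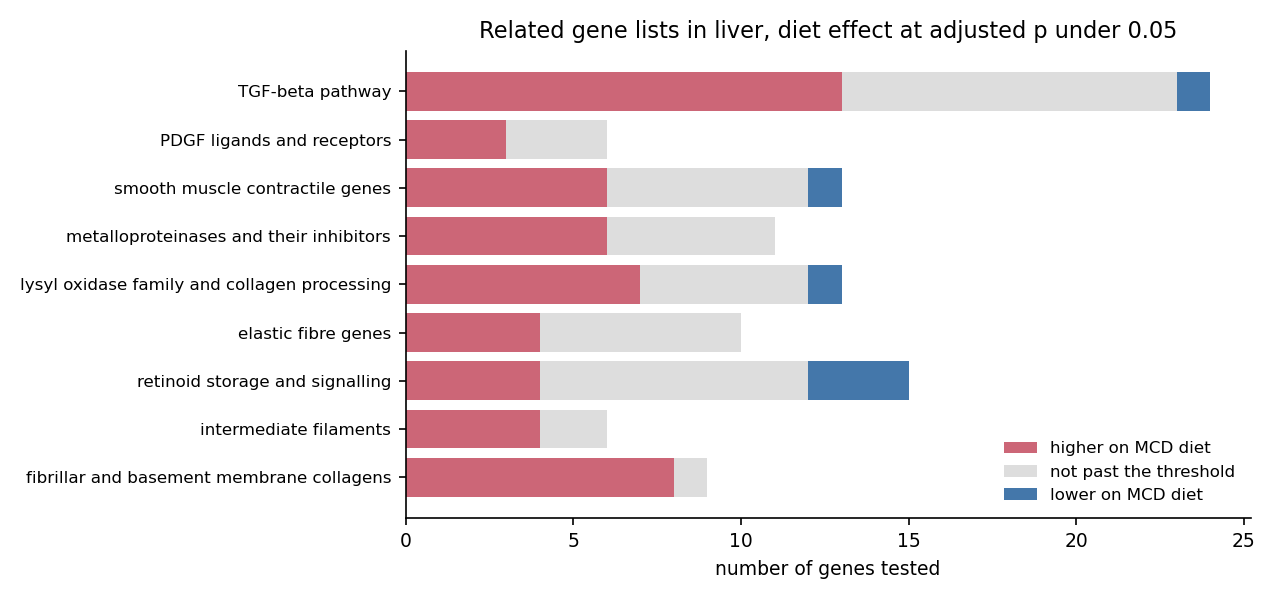
Number of genes of 9 related lists (x axis) that were higher (red), not past the threshold (grey) or lower (blue) on MCD in liver, at an adjusted p under 0.05. Collagens had 8 of 9 genes higher, and the retinoid list is the only list with 3 genes lower.

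Markers of cells that could carry these genes were counted in the same fit. Of 16 markers of quiescent stellate cells 4 rose and 5 fell, and their summed level was 849 to 1225.1 CPM on control and 758 to 1122.1 CPM on MCD. Of 10 portal fibroblast markers 5 rose and 0 fell (sums 39.5 to 120 and 47.1 to 110 CPM), and of 8 vascular smooth muscle markers, Acta2 and Des among them, 1 rose (7.33 to 24.2 and 10.8 to 35.7 CPM), with Pln at 0 in most libraries. Of 7 Kupffer cell markers 6 rose (273 to 643 and 356 to 750 CPM) and of 8 markers of lipid-associated and monocyte-derived macrophages 7 rose (81.8 to 238 and 128 to 424 CPM). All 4 neutrophil markers tested rose, from sums of 0 to 2.30 CPM to 0.166 to 11.3 CPM, with Retnlg at 0 in most libraries. Of 9 markers of sinusoidal endothelium 3 rose and 0 fell (367 to 499 and 395 to 540 CPM). Of 7 hepatocyte markers 0 rose and 4 fell, Apoa1, Cps1, Serpina1a and Ttr (median log2 change −0.27, sums 79938.7 to 120749.4 and 57835.3 to 123422.8 CPM), against 2 higher and 2 lower with library totals alone. The counts higher and lower without the libraries that stood apart were 4 and 6 for quiescent stellate cells, 5 and 1 for portal fibroblasts, 1 and 1 for vascular smooth muscle, 6 and 0 for Kupffer cells, 7 and 1 for macrophages, 4 and 0 for neutrophils, 3 and 0 for sinusoidal endothelium and 1 and 4 for hepatocytes. Over all 20424 genes of that fit, 5016 were higher and 4678 lower. The part of these cells in the changes of the members was not tested. In the 3 libraries that stood apart, the vascular smooth muscle, Kupffer cell and macrophage sums were the 3 highest of 36 and the hepatocyte sums the 3 lowest, while the quiescent stellate sums ranked 10, 13 and 5. The vascular smooth muscle sum includes Acta2 and Des, which helped to pick these libraries, so its rank is partly set by that choice.

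In SCN, Fbln5 was the only one of the 5 genes with a row that rose on MCD, where 0.0635% of 15759 genes, or 10 genes, passed and 0.0381% were higher. Its level was 24.2 at the lowest, 58.0 at the median and 89.0 CPM at the highest on control, against 61.2, 82.9 and 113 CPM for the MCD libraries, with means of 59.3 ± 14.1 and 84.7 ± 13.3 CPM (SD, n = 18 each). The log2 change was 0.52 (SE 0.10, edgeR quasi-likelihood test, adjusted p = 0.0417). All 18 MCD libraries were above the control median, 6 above every control, and 10 control libraries below every MCD library, and the MCD mean was higher at 6 of 6 times. The call sat close to the threshold: it was lost without the libraries numbered 1 (0.58, adjusted p = 0.509) or 2 (0.46, adjusted p = 1.0) and with the replicate number as a block (0.47, adjusted p = 0.241), and leaving out single libraries kept it in 12 of 36 fits, with adjusted p from 0.00416 to 0.0886. From exon-bin sums it did not pass with edgeR (0.54, adjusted p = 0.078, in a fit where 0.0507% of genes passed) but did with DESeq2 (0.54, adjusted p = 8.38e-04) and limma (0.56, adjusted p = 0.017). At single times 0 of 30 tests passed by edgeR, DESeq2 or limma, where 0.0444% of all genes did at CT4, 0.00635% at CT0, CT16 and CT20 and 0 genes at CT8 and CT12, and 3 had an unadjusted p under 0.05 in edgeR, all Fbln5.

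Acta2 ran from 6.11 through 17.6 to 30.9 CPM on control and from 8.10 through 15.6 to 30.2 CPM on MCD in SCN, with a log2 change of −0.09 (95% interval −0.37 to 0.19). Des ran from 1.03 through 3.58 to 16.4 and from 1.51 through 3.29 to 23.0 CPM (−0.14, interval −0.65 to 0.37), Pdgfrb from 7.93 through 11.9 to 17.2 and from 8.48 through 11.6 to 17.1 CPM (0.02, interval −0.15 to 0.19), and Tgfb1 from 1.64 through 3.34 to 4.99 and from 0.947 through 2.92 to 4.58 CPM (−0.16, interval −0.48 to 0.17). The diets overlapped almost wholly for these 4 genes, and each adjusted p was 1.0. Exon-bin counts in SCN were 0 to 95 on control and 0 to 49 on MCD for Lox (log2 change −0.42, SE 0.54, adjusted p = 1.0) and 0 to 114 and 0 to 52 for Timp1 (−0.73, SE 0.60, adjusted p = 1.0). Lrat had 0 to 16 and 0 to 18 counts, with 9 and 5 files at 0 (unadjusted p = 0.0262, adjusted p = 0.861). Timp1 was highest in control CT20 3 and CT20 1, at 6.22 and 2.68 CPM of all bin counts, against at most 1.03 elsewhere.

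**Figure D5:**
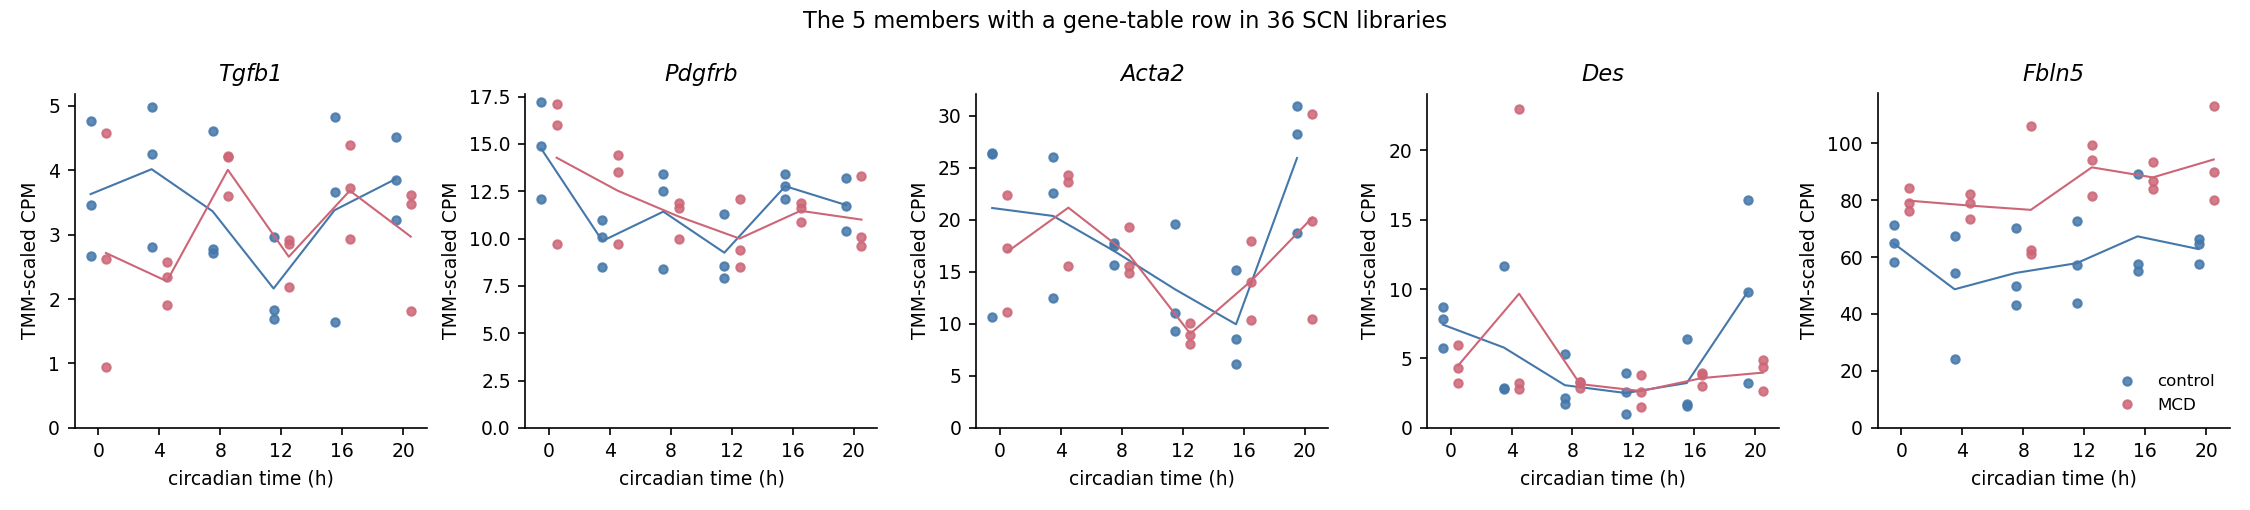
Levels of the 5 genes with a row in the SCN table (y axis, TMM-scaled CPM) by circadian time (x axis, hours), blue for control and red for MCD, with lines through the means of 3 libraries. The mean of Fbln5 is higher on MCD at each of the 6 times, and the control means of Acta2 and Des are highest at CT20.

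Acta2 and Des showed a 24 h component in SCN on control, 2 of 5 genes where 15.1% of all genes passed. Acta2 stood at 25.9 ± 6.41 CPM at CT20 and at 9.95 ± 4.70 CPM at CT16 (SD, n = 3 each), with libraries at 30.9, 18.7 and 28.2 CPM and at 8.55, 6.11 and 15.2 CPM that did not overlap, and its component spanned 1.04 on the log2 scale with a peak near CT 1.0 (edgeR adjusted p = 0.0362). Des stood at 16.4, 3.25 and 9.77 CPM at CT20 and at 1.03, 2.57 and 3.92 CPM at CT12, which overlapped, with a span of 1.97 and a peak near CT 23.1 (adjusted p = 0.031). Acta2 lost its call with limma (adjusted p = 0.0692), with the replicate number as a block (0.0605), without the libraries numbered 2 (0.524) or 3 (0.0811) and without the 5 libraries under 30 M counts (0.168), and Des without those numbered 1 (0.335) or 2 (0.142). Those 5 shallow libraries, all from CT0, CT4 or CT20, ranked 1, 3, 4, 5 and 11 of 36 for Des and 1, 3, 5, 7 and 28 for the sum of the brain vascular smooth muscle markers Tagln, Myh11, Pln and Mylk. They ranked 1, 3, 5, 9 and 14 for the sum of brain fibroblast markers and 1, 2, 3, 7 and 20 for that of hepatocyte markers, of which Alb reached 26.3 CPM against at most 11.4 CPM elsewhere. Des kept its call in the fit without these libraries, and the part of these cells in the rhythms was not tested.

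On MCD 0 of 5 genes had a rhythm in SCN by edgeR or limma and 1 by DESeq2, Acta2, which was also the only gene with an unadjusted p under 0.05 (adjusted p = 0.088), and 16.1% of all genes passed. The difference in rhythm between diets passed for 0 of 5 by each tool, with 0 at an unadjusted p under 0.05 and 0.0127% of all genes past the threshold, so the rhythms were not shown to differ. Between sexes 0 of 5 passed by each tool (9.89% of all genes), with 2 at an unadjusted p under 0.05 in edgeR, Des (0.70, adjusted p = 0.118) and Acta2 (0.33, adjusted p = 0.165). The diet effect differed between the sexes for 0 of 5 by each tool, with 0 at an unadjusted p under 0.05 in edgeR, and over all genes for 0 by edgeR or limma and 1 by DESeq2. Of 88 genes of the related lists tested in SCN, 0 passed for diet with edgeR, DESeq2 or limma, and 6 had an unadjusted p under 0.05 in edgeR. Over all SCN genes 0.0635% passed in edgeR, and 746 of 15759 had an unadjusted p under 0.05.

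Between the tissues on the control diet all 5 genes with a row in both tables differed, as did 90.4% of 14491 shared genes. Liver had more Tgfb1 (log2 difference 2.88, SE 0.15, adjusted p = 5.01e-23), Des (1.13) and Pdgfrb (0.87), and SCN more Fbln5 (−2.74, SE 0.12, adjusted p = 4.87e-27) and Acta2 (−1.78). With library totals alone, which moved the median of all genes from −0.04 to −0.75, Des (0.43, adjusted p = 0.0784) and Pdgfrb (0.17, adjusted p = 0.245) did not pass. Per kilobase of exon, the order on control in liver was Lrat (5.35 ± 1.83 CPM), Tgfb1 (2.37 ± 0.528), Pdgfrb (2.08 ± 0.698), Des (1.18 ± 0.223), Acta2 (1.04 ± 0.419), Fbln5 (0.650 ± 0.115) and Lox (0.0606 ± 0.0508), where Tgfb1 and Pdgfrb, Des and Acta2, and Acta2 and Fbln5 differed by less than the larger of their SDs. In SCN it was Fbln5 (8.58 ± 2.04 CPM), Acta2 (8.17 ± 3.4), Pdgfrb (2.12 ± 0.445), Des (1.41 ± 1.11) and Tgfb1 (0.675 ± 0.218), of which Fbln5 and Acta2, Pdgfrb and Des, and Des and Tgfb1 differed by less than the larger SD (n = 18 each).

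The diet effect differed between the tissues for Tgfb1 alone of the 5 genes, where 34.7% of shared genes passed. It was larger in liver than in SCN by 0.61 on the log2 scale (SE 0.19, adjusted p = 0.0115), and by 0.53 (adjusted p = 0.0183) without the 3 liver libraries that stood apart. The call was lost with limma (0.53, adjusted p = 0.0988) and without the libraries numbered 1 (0.56, adjusted p = 0.0515) or 2 (0.56, adjusted p = 0.101). For Fbln5, which rose in both tissues, the difference was −0.16 (95% interval −0.45 to 0.13, adjusted p = 0.419), and for Acta2, Des and Pdgfrb it was 0.41 (interval −0.09 to 0.92), 0.29 (−0.27 to 0.85) and 0.17 (−0.15 to 0.50).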

How the data were processed

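Gene counts and exon-bin counts were analysed from 72 libraries. The authors deposited raw counts per gene and per exon bin. The submitters' processing notes name Trimmomatic, HISAT2, StringTie, DESeq2 and build GRCm39, with no roles, and no source used here gives the counter or says whether it used strand. Annotation and promoters came from GRCm38, so positions are not those of the counting. The members, the lists and the tests were chosen with earlier results of these data known.

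Each tissue was fitted across all genes with edgeR 4.0.16 in R 4.3.3 (quasi-likelihood, TMM, filterByExpr with a minimum count of 10), with 1 mean for each combination of diet and time, plus sex. Adjusted p-values are Benjamini-Hochberg over all genes tested, with a threshold of 0.05. The diet effect is the mean over the 6 times, and within a kind of library over the times that held both diets. The rhythm is a 24 h cosine and sine, and 95% intervals are the estimate with the normal multiple of its SE. A model of 72 libraries on 14491 shared genes compared the tissues. Correlations used 100000 permutations. Alternatives included DESeq2 1.42.0, limma 3.58.1 (voom), library totals, no filter, the replicate number as a block, and leaving out libraries. Those without the 3 liver libraries that stood apart, without SCN libraries under 30 M counts, and the exon-bin sums were chosen after seeing the data.

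On simulated counts, changes of 1 and 0.5 on the log2 scale were recovered for 76% and 58.6% of genes for the liver diet effect (19669 genes fitted) and for 91% and 75% for that in SCN (15759 genes fitted). In these counts 100 genes were changed at each size, with no time or sex effects, and 6 and 11 unchanged genes were called. In the real liver fit 46.6% of genes passed, so these shares do not give the power of that test. From each related list, up to 3 genes with the largest called change in each direction were named, apart from some that are not reported here. Vim, Timp2, Timp3, Col3a1 and Trem2 were named outside this rule, after their values were seen. Columns for the control CT8 males share 1 name within each gene table, so they have no replicate number. No replicate pair of gene counts agreed within sampling noise (chi-square per degree of freedom at least 24.1).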

Additional observations from a re-analysis of the deposited data

Results flagged for a closer look

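The diet effect on Tgfb1 was larger in liver than in SCN by 0.61 on the log2 scale in a test of the difference itself (edgeR adjusted p = 0.0115, where 34.7% of shared genes passed). It did not pass with limma (adjusted p = 0.0988) or without the libraries numbered 1 (0.0515) or 2 (0.101). Timp1 had no place in the gene count tests, and the exon-bin counts gave a log2 change of 2.44 on MCD in liver (edgeR adjusted p = 0.00544).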

How the results depend on the processing

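Of 1036 alternative values of 77 results, 907 stayed the same, 62 lost and 5 gained a call, 55 moved and 7 reversed. A change stayed the same if it kept its direction and side of the threshold. A count of calls stayed the same if it was equal or within a fixed ratio, and moved otherwise. Numbers of members called for diet in liver (3) became 7 with library totals alone (60.1% of all genes) and 0 to 3 without each replicate number (31.2% to 38.8%). Diet calls within a kind of library are not listed here, since several groups held a single library. Single-time calls (1) became 7 with library totals alone, 2 with DESeq2, 2 without control CT8 a, 2 without the 3 liver libraries that stood apart and 0 to 1 without each number. In the same order, single-time shares over all genes were 1.37% to 32.0%, 3.24% to 21.7%, 5.86% to 20.6%, 9.32% to 20.2% and 0.0392% to 12.1%. The liver rhythm on control (0) became 1 with DESeq2, 2 without those 3 libraries and 0 to 1 without each number, and that on MCD (0) became 1 without the 3 and 0 to 1 without each number. Sex calls in liver (0) became 3 without the 3 libraries (19.4% of all genes), and correlated pairs (19) became 2 without them and 4 within control alone.

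In SCN, diet calls (1) were 0 to 1 without each number (0 to 0.0888% of all genes) and without each single library. Rhythm calls on control (2) became 1 with limma, 1 without libraries under 30 M counts and 0 to 1 without each number, and those on MCD (0) became 1 with DESeq2 and 0 to 1 without each number. Shares over all genes were 17.3%, 14.5% and 5.15% to 13.7% on control, and 19.8% and 4.92% to 10.7% on MCD. Calls between the tissues (5) became 3 with library totals alone, and the difference of the diet effect (1) became 0 with limma and 0 to 1 without each number. Shares over all genes were 91.0% for the former, and 30.9% and 20.3% to 30.3% for the latter. Reversed values were Lrat within the low kind (−0.26, adjusted p = 0.179), Mmp7 within the high kind (−0.95), SCN Acta2 (−0.27 to 0.04) and SCN Pdgfrb (−0.04 to 0.06) over the fits without each number, Pdgfrb without libraries under 30 M counts (−0.02), and SCN Timp1 (−0.73 with all files, −1.64 to 0.02) over the fits without each number. Not among those results, SCN Lox from exon bins (−0.42 with all files) was 0.05 with limma and 0.82 without the files numbered 1. The cause was not tested.

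With the replicate number as a block, in place of sex and without the 2 control CT8 columns, Fbln5 in SCN lost its diet call (members called 0; 0.47, adjusted p = 0.241), the SCN rhythm calls became 1 (Des), and SCN Des turned to 0.12. Same-numbered libraries of the 2 diets deviated together at a correlation over 0.1 in 13 of 16 pairs in liver (0.07 to 0.43) and 8 of 16 in SCN (−0.09 to 0.28), and with sex removed in 5 of 16 and 3 of 16. Not every pair passed 0.1 and the labels tie no number to a shared animal or day, so the numbers were not taken to pair the samples. Lox and Timp1 in liver, and Lox, Lrat and Timp1 in SCN, are limited by low counts.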
